A study of Mus musculus with 10 samples.

Results

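The 7 genes described here encode the condensin subunits other than Ncapg2: Smc2, Smc4, Ncapd2, Ncapg, Ncaph, Ncapd3 and Ncaph2. They were taken by symbol from the probe sets that name exactly 1 gene, which gave 7 genes of the 19938 measured, each with 1 probe set. Expression was measured on 1 array per embryo in the forebrain of 10 mouse embryos at stage E12.5, on a mixed CD1/NMRI background. The transgenic group (dtg in the titles, n = 5) carried a constitutively active form of the transcription factor FoxO3 under control of the CaMKIIa promoter, and the control group (stg) also had 5 embryos. The labels do not spell out dtg and stg, do not say which transgene the controls carry, and name 2 dams without assigning embryos to them, so litter and group cannot be told apart. The p-values rest on the spread among these embryos, taken as independent, with no term for litter. The 5 arrays a group limit the precision. The Foxo3 probe set read 6.95, 7.13, 7.10, 6.76 and 6.96 in transgenic embryos 1 to 5 and 6.50, 6.61, 6.59, 6.65 and 6.87 in control embryos 1 to 5; whether its probes match the transgene is not given in the sources used here. The groups overlapped at transgenic embryo 4 and control embryo 5, with a log2 difference of 0.34 ± 0.085 (SE, n = 5 per group; limma adjusted p = 0.218).

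Condensins are ring-shaped ATP-driven machines that extrude loops of DNA and compact chromosomes for division. Condensin I and condensin II share the ATPase pair Smc2 and Smc4. Each adds a kleisin, which closes the ring (Ncaph in I, Ncaph2 in II), and a pair of HEAT-repeat subunits (Ncapd2 and Ncapg in I, Ncapd3 and Ncapg2 in II). Condensin II is nuclear throughout the cell cycle and acts from prophase, whereas condensin I reaches chromosomes after the nuclear envelope breaks down. In the embryonic forebrain the dividing progenitors of the ventricular wall depend on them, and mutations in several condensin genes are known to cause microcephaly.

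The make-up of the samples differed between embryos, and 1 array stood apart. Over all genes 51.9% read lower in transgenic embryos. In limma 7.58% were below an unadjusted p of 0.05 in either direction, and 0.105% passed an adjusted p of 0.05. The mean of 20 pan-neuronal genes ran from 8.11 to 8.72 in transgenic embryos, highest in embryos 1 and 3 at 8.72 and 8.67. In controls it was 7.20 in embryo 5 and ran from 8.14 to 8.47 in the others. Of the 20, 19 read higher in transgenic embryos. In limma 0 of them passed, and 0 were below an unadjusted p of 0.05. The mean of 13 thalamus genes ran from 6.78 to 7.52 and from 6.10 to 7.09. Of the 13, 12 read higher, with a median log2 difference of 0.65. Here 0 passed in limma and 7 were below that unadjusted p. The smallest p-values belonged to Foxp2 at 0.74 (limma adjusted p = 0.0846), Olig3 at 2.26 and Dbx1 at 1.11. Of 11 forebrain identity genes 9 read lower, with a median of -0.25. Among these 11, 0 passed in limma and 3 were below that unadjusted p: Eomes at -0.58, Neurog2 at 0.21 and Emx1 at -0.37. The mean of 17 radial glia genes ran from 8.39 to 8.49 and from 8.49 to 8.54. Of the 17, 11 read lower and 6 higher, with a median of -0.024. In limma 0 passed and 3 were below an unadjusted p of 0.05, not all in 1 direction. The mean of 9 erythroid genes was lowest of all 10 arrays in transgenic embryos 3 and 1, at 6.11 and 6.18, against 6.20 to 7.24 in controls. In control embryo 5 the mean correlation with the other arrays was 0.985 (0.992 to 0.993 for the rest) and the mesenchyme mean was 8.09 (6.27 to 7.07 in the other controls). Of its forebrain markers Lhx2 read 9.95, the highest control value, and Dlx1 read 4.82, against 6.86 to 9.38 in the other controls. Without that embryo the members' median log2 difference was -0.10 in place of -0.13, and 0 of 7 passed. Beyond the fits with a list mean as covariate, the part of tissue make-up in the condensin values was not tested.

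All 7 partner subunits read lower on average in transgenic forebrains, by 0.055 to 0.25 on the log2 scale, and 0 of 7 passed an adjusted p of 0.05 in limma. Across all genes 21 passed in either direction (0.105%) and 8 passed as lower (0.0401%). The low means came with 2 embryos: transgenic embryos 1 and 3 held the lowest and second lowest value of all 10 arrays for 7 of 7 genes. The other transgenic embryos mostly overlapped the controls. Ncapg2, shown for reference because it fell by 1.34 ± 0.12 (SE, n = 5 per group), lay below every control in 5 of 5 transgenic embryos. In bulk tissue, fewer dividing cells and less RNA per cell cannot be told apart.

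The proximal promoters of 6 partner genes are shown because their transcripts varied together over the embryos. Each is the RefSeq sequence of GRCm38.p6 from 100 bases before to 50 bases after the annotated start, 150 bases written 5′ to 3′ along the gene. Of the 7 genes, 6 matched the promoter table and Smc4 did not; Ncapd3 has 2 listed starts, of which the first is printed. Capitals mark any match, on either strand, to TTTGAA or TTCGAA (the cell cycle homology region), CCAAT, TTTCCCGC, TTTGGCGC or TTTCGCGC (E2F) and GTAAACA (forkhead).
Smc2, chr4:52439121-52439270, plus strand: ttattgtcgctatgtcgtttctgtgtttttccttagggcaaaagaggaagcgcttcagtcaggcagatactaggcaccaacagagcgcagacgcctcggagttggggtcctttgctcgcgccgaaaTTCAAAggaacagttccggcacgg
Ncapd2, chr6:125191537-125191686, minus strand: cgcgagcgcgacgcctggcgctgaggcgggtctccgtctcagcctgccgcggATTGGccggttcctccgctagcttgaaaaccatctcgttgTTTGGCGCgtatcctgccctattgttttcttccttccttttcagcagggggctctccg
Ncapg, chr5:45669825-45669974, plus strand: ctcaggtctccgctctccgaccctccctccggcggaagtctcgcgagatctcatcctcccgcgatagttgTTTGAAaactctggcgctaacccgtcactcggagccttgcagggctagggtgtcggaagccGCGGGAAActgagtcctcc
Ncaph, chr2:127133905-127134054, minus strand: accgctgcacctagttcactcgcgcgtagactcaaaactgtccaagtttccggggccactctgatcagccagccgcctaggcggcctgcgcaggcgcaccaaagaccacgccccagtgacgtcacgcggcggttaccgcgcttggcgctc
Ncapd3, chr9:27030065-27030214, plus strand: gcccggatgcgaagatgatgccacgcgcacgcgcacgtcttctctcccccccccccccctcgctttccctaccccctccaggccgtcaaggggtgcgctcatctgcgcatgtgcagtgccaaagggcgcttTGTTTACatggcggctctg
Ncaph2, chr15:89355619-89355768, plus strand: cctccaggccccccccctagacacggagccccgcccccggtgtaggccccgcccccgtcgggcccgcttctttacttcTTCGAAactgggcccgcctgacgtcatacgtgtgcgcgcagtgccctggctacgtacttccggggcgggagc

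The cell cycle homology region is the element through which many mitotic genes are timed. A match was found within 300 bases for 5 of the 6 genes, against 19.2% of the 32851 listed promoters of that length. Counts of genes here take any listed start, whereas the shares beside them are per promoter. In the 150 bases printed, Smc2, Ncapg and Ncaph2 held a match, against 8.59% of promoters. In Ncapg it begins at position -30, counted from -1 for the base before the start, and in Ncaph2 at -22. Smc2 has matches at -145 and 27, and Ncapd2 has its match at -123, upstream of the stretch printed. The Ncapd3 match, at -249, belongs to the second start listed. An E2F match was found for 2 of 6, at -8 in Ncapd2 and 32 in Ncapg, against 1.84% of promoters. CCAAT was found for 3 of 6, against 37.4%. The forkhead letters were found for 1 of 6, at position 32 of Ncapd3, against 3.65%, and no matches overlapped. Ncaph held none of these letters in its window. A match of letters is a description of the sequence and not a binding site.

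Smc2, an ATPase of both complexes, read 7.88, 8.19, 8.03, 8.37 and 8.31 on the log2 scale in transgenic embryos 1 to 5. In control embryos 1 to 5 it read 8.26, 8.20, 8.23, 8.25 and 8.45. Transgenic embryos 1, 2 and 3 lay below all controls, embryo 2 only narrowly, and embryos 4 and 5 lay within their range. The means were 8.15 ± 0.20 and 8.28 ± 0.10 (SD, n = 5 per group), a log2 difference of -0.12 ± 0.093 (SE; limma adjusted p = 0.833).

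Smc4, its ATPase partner, read 8.48, 8.88, 8.60, 9.00 and 8.83 in transgenic embryos and 8.90, 8.85, 9.01, 8.83 and 9.06 in controls. Embryos 1 and 3 lay below all controls and the other 3 within their range. The log2 difference was -0.17 ± 0.096 (SE, n = 5 per group; limma adjusted p = 0.751). The 95% interval ran from -0.38 to 0.039 for Smc4 and from -0.33 to 0.08 for Smc2, so neither gene was resolved from no difference.

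**Figure D1:**
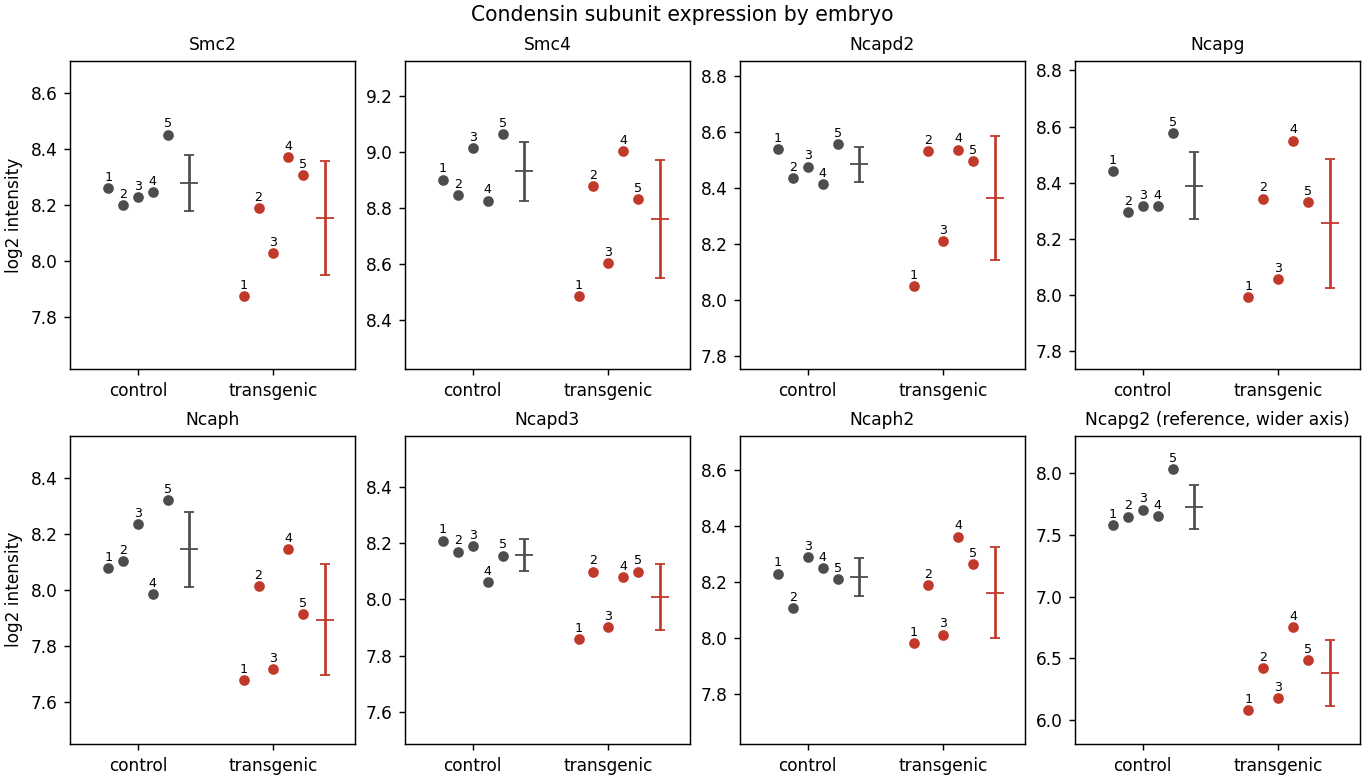
Log2 intensity (vertical axis) of the 7 partner subunits and of Ncapg2 in each control (grey) and transgenic (red) embryo; digits are the embryo numbers, and the bars beside the points give the mean ± SD (n = 5 per group). Every panel spans the same height except that of Ncapg2, where the groups are apart; in the 7 partner panels transgenic embryos 1 and 3 are the lowest points.

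Ncaph, the kleisin of condensin I, had the largest difference of the 7. It read 7.68, 8.01, 7.72, 8.15 and 7.91 in transgenic embryos and 8.08, 8.10, 8.24, 7.99 and 8.32 in controls. Embryos 1, 3 and 5 lay below all controls, and 4 of 5 transgenic embryos lay below the control median. The means were 7.89 ± 0.20 and 8.15 ± 0.13 (SD, n = 5 per group), a log2 difference of -0.25 ± 0.097 (SE), or 0.84 of the control level. Ncaph was below an unadjusted p of 0.05 (limma p = 0.0235) but not after adjustment (limma adjusted p = 0.579), and the exact two-sided permutation test gave p = 0.0556.

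The HEAT-repeat subunits of condensin I had smaller log2 differences than Ncaph, an order that was not tested. Ncapd2, which contacts chromatin and the kleisin, read 8.05, 8.53, 8.21, 8.54 and 8.49 in transgenic embryos and 8.54, 8.44, 8.48, 8.41 and 8.55 in controls. In Ncapd2 the 3 transgenic embryos within the control range were all above the control median. Its log2 difference was -0.12 ± 0.094 (SE, n = 5 per group; limma adjusted p = 0.834). Ncapg read 7.99, 8.34, 8.06, 8.55 and 8.33 in transgenic embryos and 8.44, 8.29, 8.32, 8.32 and 8.58 in controls. Its embryos 2, 4 and 5 also lay within the control range and above the control median, and its log2 difference was -0.13 ± 0.10 (SE, n = 5 per group; limma adjusted p = 0.834).

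Condensin II is represented by Ncapd3 and Ncaph2. Ncapd3, its HEAT-repeat subunit beside Ncapg2, read 7.86, 8.10, 7.90, 8.08 and 8.10 in transgenic embryos and 8.21, 8.17, 8.19, 8.06 and 8.16 in controls. Of these genes it was the only one in which 5 of 5 transgenic embryos lay below the control median, although control embryo 4 lay below 3 of them. Its log2 difference was -0.15 ± 0.064 (SE, n = 5 per group; limma p = 0.0359, adjusted p = 0.627; exact two-sided permutation p = 0.0317). Ncaph2, the kleisin, read 7.98, 8.19, 8.01, 8.36 and 8.27 in transgenic embryos and 8.23, 8.11, 8.29, 8.25 and 8.21 in controls. Here transgenic embryo 4 was the highest of all 10 arrays, and the log2 difference of -0.055 ± 0.077 (SE, n = 5 per group; limma adjusted p = 0.914) was the smallest of the 7. The median was -0.13 over the condensin I subunits, and the mean over this condensin II pair was -0.10; no difference between the complexes was tested.

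**Figure D2:**
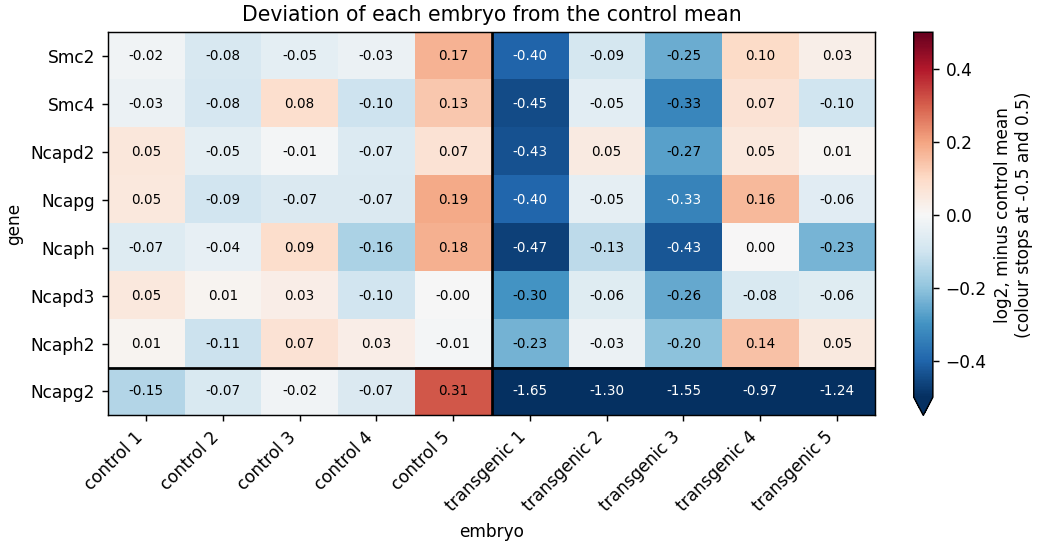
Log2 deviation of each embryo (columns) from the control mean of the gene (rows), with the value printed in each cell; blue is lower and red higher, and the colour stops at -0.5 and 0.5. The columns of transgenic embryos 1 and 3 are blue for all 7 partner subunits, the column of transgenic embryo 4 is near the controls, and the Ncapg2 row is between -0.97 and -1.65 in all transgenic embryos.

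Read by embryo, the genes varied together, with a Pearson r over the 10 arrays from 0.689 to 0.962 among the 21 pairs, as a description. Averaged over the 7, the log2 deviation from the control mean was -0.382 in transgenic embryo 1 and -0.296 in embryo 3. Embryos 2 and 5 both averaged -0.051, and embryo 4 averaged 0.064. In embryos 1 and 3 all 7 genes lay below every control, whereas 6 of 7 lay within the control range in each of embryos 2, 4 and 5. The exceptions were Smc2 in embryo 2 and Ncaph in embryo 5, both below the controls, and Ncaph2 in embryo 4, above them. Control embryos averaged between -0.071 and 0.105, with embryo 5 highest. In 7 of 7 genes the SD was larger among transgenic embryos (0.118 to 0.229) than among controls (0.057 to 0.133); this difference in spread was not tested.

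As a group, 7 of 7 members read lower, against 51.9% of all genes, and 2 of 7, Ncaph and Ncapd3, were lower at an unadjusted limma p below 0.05, against 3.48% of all genes. In 0 of 7 did the groups separate without overlap, against 1.6% of all genes. The median log2 difference was -0.13 over the members and -0.0038 over all genes. It was -0.068 without transgenic embryo 1 and -0.18 without transgenic embryo 4. Since the 7 genes followed each other across embryos, these counts describe few independent observations.

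The level of G2/M genes, which are expressed as cells enter and pass through mitosis, was lowest in the same embryos. The mean of 23 G2/M genes, none of them a condensin gene, was 7.54, 7.95, 7.64, 7.99 and 7.85 in transgenic embryos 1 to 5 and 7.95, 7.92, 7.99, 7.90 and 8.10 in control embryos 1 to 5. Transgenic embryos 1 and 3 were again lowest and control embryo 5 highest. Each subunit was set against this mean over the 10 embryos, 7 relations in all, with permutation p-values adjusted over them. Smc4 followed it most closely, with Pearson r = 0.982 (permutation p = 1e-05, the smallest 100000 resamples can give, adjusted p = 7e-05) and Spearman rho = 0.976 (permutation p = 2e-05, adjusted p = 0.00014). Ncaph had r = 0.961 (permutation p = 4e-05, adjusted p = 0.00014) and rho = 0.952 (permutation p = 0.00011, adjusted p = 0.000385). Without transgenic embryos 1 and 3, which lay farthest from the median of the G2/M mean, r was 0.917 for Smc4 (permutation p = 0.00016, adjusted p = 0.00112) and 0.94 for Ncaph (permutation p = 0.00064, adjusted p = 0.00224).

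For the other 5 subunits the relation did not pass after adjustment among the 8 embryos left without those 2, where r ran from 0.073 for Ncaph2 to 0.72 for Ncapg. Ncapg had r = 0.928 (permutation p = 0.00038, adjusted p = 0.000887) and rho = 0.733 (permutation p = 0.0205, adjusted p = 0.0359), and r = 0.72 without them (permutation p = 0.0364, adjusted p = 0.085). Ncapd2 had r = 0.942 (permutation p = 0.00068, adjusted p = 0.00119) and rho = 0.782 (permutation p = 0.0108, adjusted p = 0.0252), and r = 0.553 without them (permutation p = 0.156, adjusted p = 0.219). Smc2 had r = 0.911 (permutation p = 0.00102, adjusted p = 0.00143) and rho = 0.612 (permutation p = 0.0672, adjusted p = 0.0784), and r = 0.581 without them (permutation p = 0.14, adjusted p = 0.219). Of the 7, the condensin II pair had the lowest Pearson r, an order that was not tested. Ncapd3 had r = 0.893 (permutation p = 0.00355, adjusted p = 0.00414) and rho = 0.661 (permutation p = 0.0431, adjusted p = 0.0604), and r = 0.337 without them (permutation p = 0.43, adjusted p = 0.502). Ncaph2 had r = 0.787 (permutation p = 0.00988, adjusted p = 0.00988) and rho = 0.539 (permutation p = 0.113, adjusted p = 0.113), and r = 0.073 without them (permutation p = 0.866, adjusted p = 0.866). The permutations did not keep group, so these p-values also take in the shared group shift. For deviations from the group means, r ran from 0.811 for Ncaph2 to 0.979 for Smc4. Within controls alone (n = 5) r was 0.142 for Ncaph2, 0.307 for Ncapd3 and up to 0.95 for Ncaph. Within transgenic embryos (n = 5) it ran from 0.917 for Smc2 to 0.989 for Smc4.

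**Figure D3:**
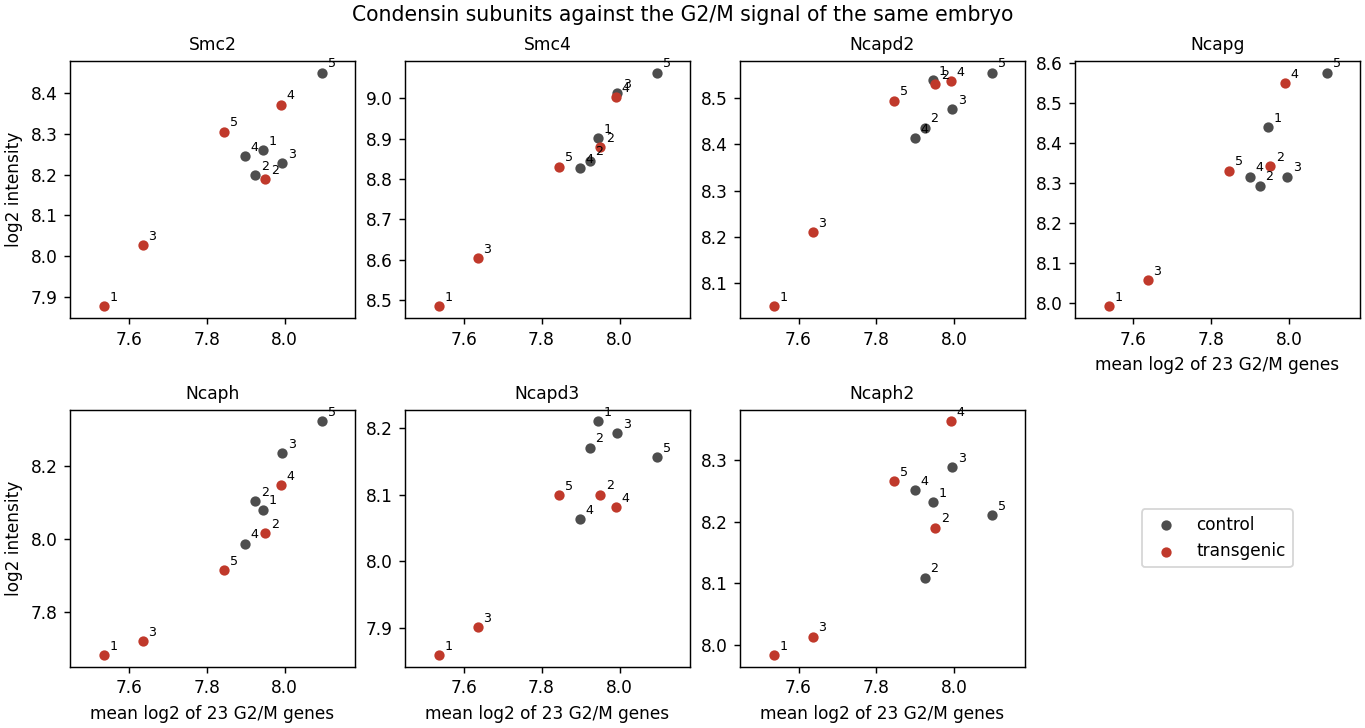
Log2 intensity of each partner subunit (vertical axis) against the mean log2 of 23 G2/M genes in the same embryo (horizontal axis), for controls (grey) and transgenic embryos (red), with embryo numbers. Transgenic embryos 1 and 3 lie at the lower left of every panel; among the remaining 8 embryos r is 0.917 for Smc4, 0.94 for Ncaph and 0.073 for Ncaph2.

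With the G2/M mean as a covariate in limma, the group differences of the subunits were close to 0. They were -0.06 for Ncaph (95% interval -0.19 to 0.074) and -0.057 for Ncapd3 (-0.19 to 0.074). They turned positive for the other 5: 0.026 for Smc4, 0.051 for Smc2, 0.066 for Ncapd2, 0.066 for Ncaph2 and 0.07 for Ncapg, with adjusted p-values from 0.956 to 0.993 among these 5. Ncapg2 in the same fit was lower by a log2 difference of -1.10 ± 0.081 (SE, n = 5 per group; limma adjusted p = 0.000565). Ncapg2 is shown because it fell in these same data, so this p-value is no separate evidence. With the pan-neuronal mean as the covariate the partner differences ran from -0.16 for Ncaph to -0.024 for Ncaph2. That covariate had an outlying value of 7.20 in control embryo 5, and its fit was not repeated without this embryo. Without transgenic embryos 1 and 3, r with the G2/M mean ran from 0.073 for Ncaph2 to 0.94 for Ncaph. The G2/M fit was not repeated without these embryos. Subtracting the G2/M mean of the same embryo in place of the fit gave 0.030 for Ncapd3, so its sign depended on the form of adjustment. The G2/M mean was itself lower in the transgenic group. These fits therefore describe what is left beside it and do not say what set either level.

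**Figure D4:**
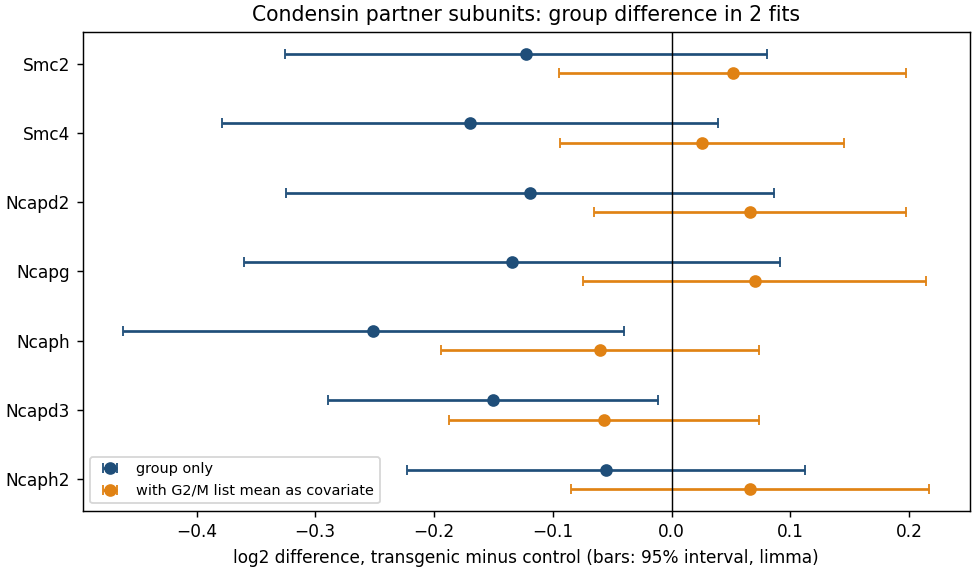
Log2 difference, transgenic minus control (horizontal axis), for the 7 partner subunits with 95% intervals from limma, fitted with group only (blue) and with the G2/M list mean as a covariate (orange). All blue points are left of 0 and the intervals of Ncaph and Ncapd3 stop short of it before adjustment for multiple testing, while every orange interval spans 0.

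Relative to its partners in the same embryo, Ncapg2 stood apart in every comparison, which its choice as a reference for its fall already implies. The size of such a ratio depends on the probes of both genes, so only its shift between groups is read. The log2 ratio of Ncapg2 to Ncaph2 ran from -1.91 to -1.61 in transgenic embryos and from -0.65 to -0.18 in controls. Its ratio to Ncapd3 ran from -1.78 to -1.33 and from -0.63 to -0.12. Its ratio to Ncapg, the matching subunit of condensin I, ran from -1.92 to -1.80 and from -0.86 to -0.54. Over the 7 partners the group difference of this ratio was between -1.29 and -1.09. Within the transgenic group Ncapg2 was lowest in embryos 1 and 3, at 6.08 and 6.18, which were also the lowest embryos for each of the 7 partners, and highest in embryo 4, at 6.75.

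Other chromosome machinery gave no call, with the threshold at an adjusted p of 0.05 in limma throughout. The list counts below stand against all 19938 genes. Of these only 21 (0.105%) passed in either direction, so the absence of calls in short lists says little about them. Among all genes 1511 (7.58%) were below an unadjusted p of 0.05 in either direction, and 51.9% read lower. Of 21 cohesin genes, which hold sister chromatids together, 0 passed and 3 were below an unadjusted p of 0.05; 13 read lower, and the median log2 difference was -0.047. Those 3 were the acetyltransferase gene Esco2 at -0.25, the loader gene Nipbl at 0.12 and Sgo2a, which protects centromeric cohesin, at -0.22. Of 9 genes of the SMC5/6 complex, which acts in DNA repair, 0 passed and 2 were below an unadjusted p of 0.05; 6 read lower, with a median of -0.031. The smallest p-values belonged to Smc6 at -0.12, the SUMO ligase gene Nsmce2 at -0.18 and Nsmce3 at 0.24. Of 22 measured condensin regulators and chromosome axis partners, 0 passed and 3 were below an unadjusted p of 0.05; 18 read lower, with a median of -0.12. Aurkb and Birc5, of the chromosomal passenger complex, read -0.26 and -0.28, and the histone demethylase gene Phf8 read 0.14.

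Of 37 centromere and kinetochore genes 32 read lower, with a median of -0.17, and 0 passed, with 5 below an unadjusted p of 0.05; 4 of the 37 are also in the G2/M list. Cenpl read -0.42 (limma adjusted p = 0.388), the Ndc80 complex gene Spc25 read -0.28 and Cenpm read -0.24. All 23 G2/M genes read lower, with a median of -0.18 and 0 past the threshold; 11 were below an unadjusted p of 0.05, led by the kinesin genes Kif20b at -0.23, Kif23 at -0.24 and Kif2c at -0.25. All 23 measured S-phase genes read lower, with a median of -0.19 and 0 past the threshold; 7 were below an unadjusted p of 0.05, led by Ccne2 at -0.28, Pola1 at -0.21 and Rrm2 at -0.24.

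The genes whose profile over the 10 arrays was most like each subunit were taken as the 2 with the highest Pearson r, as a description. They were Ccnf (r = 0.994) and Skp2 (0.98) for Smc4, Dis3 (0.976) and Cdca8 (0.969) for Smc2, and H1f5 (0.98) and Ccna2 (0.976) for Ncapd2. For Ncapg they were Chaf1a (0.986) and Aqr (0.975), and for Ncaph Chek2 (0.992) and Gtse1 (0.978). For Ncapd3 they were Syne2 (0.967) and Mybl1 (0.966), and for Ncaph2 Sgo1 (0.962) and Zwilch (0.936). Their log2 differences ran from -0.098 for Aqr to -0.40 for Chek2, a direction that their choice by likeness to the subunits largely fixed, and 0 of the 14 passed in limma.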

How the data were processed

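Forebrain RNA of 10 embryos was hybridised to Affymetrix Mouse Gene ST arrays, 1 per embryo, from part of each forebrain. The deposited values are log2 intensities of 35556 probe sets, which per the submitters' processing notes came from Expression Console of Affymetrix; the summarisation and normalization settings are not given in the sources used here. Array medians were 5.36 to 5.39. A single gene was named by 21789 probe sets, more than 1 gene by 1621, and no gene by 12146. The brightest probe set of each gene gave 19938 genes, with no filter on low values. All 7 members were above the 40th percentile of gene means used by the filter tried as an alternative.

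Groups were compared with limma 3.58.1 (R 4.3.3) in a fit on group only, with Benjamini-Hochberg adjustment over all genes and a threshold of 0.05. Exact permutation tests used all 252 assignments, with 0.00794 the smallest p they allow, and correlations used 100000 resamples (Python 3.11.15, scipy 1.17.1); both are two-sided. The fit was tested on simulated data. The members and lists were chosen with earlier results of these data known. The text names the members, Ncapg2 and Foxo3 for reference, the 3 genes of each related list with the smallest p where none passed, and the 2 genes most like each member. The replicate block, left-out embryos, variance model, array weights, normalization, dim-gene filter, probe set choice and covariates were tried as alternatives.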

Additional observations from a re-analysis of the deposited data

Results flagged for a closer look

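Of 22 groups of 5 tested with Dixon's ratio (critical value 0.71), 4 had an outlying value, and chance gives about 1 in 20; all 4 were in control embryo 5. Smc2 read 8.45 there, against 8.26 in the next control (ratio 0.756). Ncapg2 read 8.03, against 7.70 in the next control (ratio 0.721). The S-phase mean was 8.46, against 8.27 in the next control (ratio 0.786). The pan-neuronal mean was 7.20, against 8.14 in the nearest control (ratio 0.741).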

How the results depend on the processing

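In limma, 0 of 7 members passed under any of the 21 alternatives, and the smallest adjusted p was 0.301 (Ncaph without transgenic embryo 4). Of 147 member values, 137 kept their direction and 10 turned positive, all with the G2/M mean as covariate: Smc2 0.051, Smc4 0.026, Ncapd2 0.066, Ncapg 0.070 and Ncaph2 0.066. With control embryo 5 also left out, an alternative chosen after seeing the data, they were 0.057, 0.026, 0.060, 0.075 and 0.056. The members' median turned to 0.051 and 0.056 in these fits; with 1 embryo left out it ran from -0.18 (without transgenic embryo 4) to -0.068 (without transgenic embryo 1).

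The count of all genes passed, 21, was 55 at an adjusted p below 0.1, 9 over all probe sets, 39 with array weights, 93 with the pan-neuronal covariate and 42 with the G2/M covariate without control embryo 5. Leaving out control embryo 4 gave 58, the most of the 10 such fits, and leaving out transgenic embryo 1 gave 7, the fewest. With the replicate block it was 2, and 0 members passed; same-numbered embryos' deviations correlated between -0.246 and 0.238, and 0 of 5 correlated best with their own number, so the numbers were not taken as pairs. The cause of these changes was not tested.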
